A study of Equus caballus with 2 samples.

Results

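CpG sites that drew far more reads than others were examined in DNA of 1 equine sarcoid and 1 piece of tumour-distant skin, both from horse 1, by reduced representation bisulfite sequencing (RRBS). Sarcoids are tumours of fibroblasts in the skin of horses. Each tissue gave 1 library, so the 2 libraries have no replicates and any test compares their reads and not the tissues. Levels are means over all cells of a piece of tissue, and a different mix of cells cannot be told apart from a different level within cells. The reads of both strands of a CpG were summed, and CpGs were chosen by this coverage. They had to be among the 0.1% most deeply read of the CpGs listed in both libraries, in at least 1 of them, which meant more than 574 reads for skin or more than 403 for sarcoid. Of 1087926 shared CpGs, 1325 (0.122%) met this rule. Since they were chosen by measured coverage, that coverage and the ratio of reads between the libraries are described and not tested.

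RRBS cuts DNA at CCGG with the enzyme MspI and sequences the ends of short fragments after bisulfite treatment, which turns unmethylated cytosine into a base read as T. A cytosine still read as C counts as methylated. Near-identical copies of a repeated sequence give the same fragments, so places of a genome that stand for many copies can gather the reads of all of them. Repeated elements such as retrotransposons and satellites are heavily methylated in most mammalian somatic tissues, whereas promoters rich in CpGs are mostly unmethylated. No genome of the build of the files was used here, so no gene, repeat class or sequence is named, and positions are those of the deposited files.

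The CpGs of extreme coverage had 6 to 12002 reads in skin, with a median of 866. In sarcoid they had 124 to 6223 reads, with a median of 611. The medians of all shared CpGs were 34 and 26 reads, so the chosen CpGs were 25.5-fold above them in skin and 23.5-fold in sarcoid. They held 3.68% of the 48650606 CpG reads of skin and 3.41% of the 35970547 of sarcoid. The rule was met in both libraries by 845 CpGs, in skin alone by 240 and in sarcoid alone by 240. Just inside the limit lay CpGs with 575 or 576 reads in skin and 404 or 405 in sarcoid, and just outside CpGs with 574 and 403. CpGs listed in only 1 library reached at most 122 reads in skin and 387 in sarcoid, so none of them passed the limit. A single CpG, at chr4:29660440, had 6 reads in skin and 739 in sarcoid. It was the only one of the 1325 with under 10 reads in a library and was not tested.

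**Figure D1:**
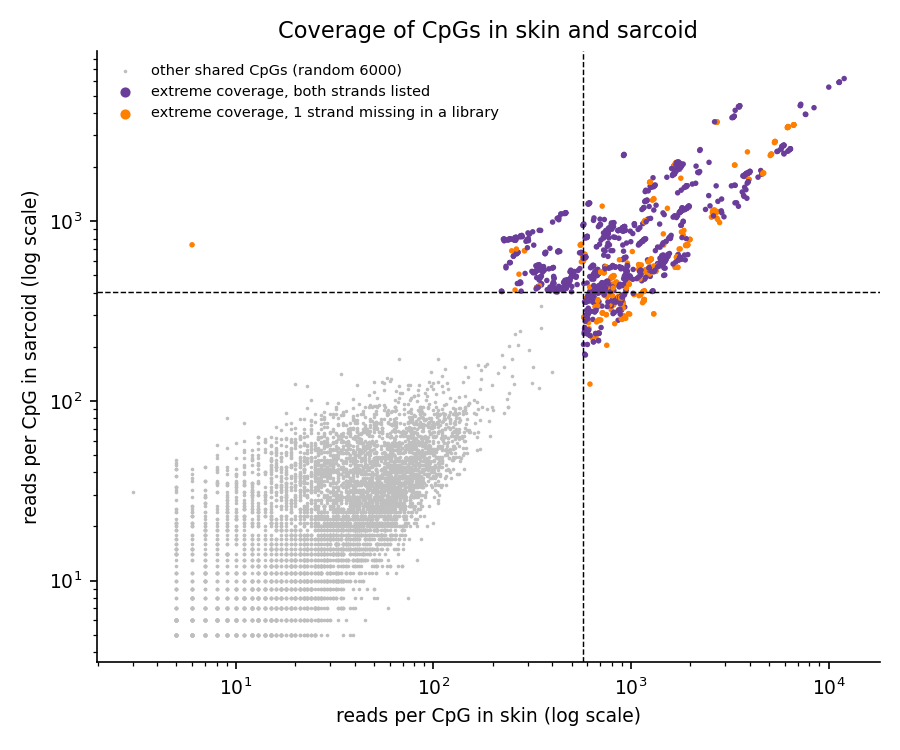
Reads per CpG in skin (x axis, log scale) and in sarcoid (y axis, log scale) for all 1325 CpGs of extreme coverage (coloured by strand listing) and for a random draw of other shared CpGs (grey). Dashed lines mark 574 reads in skin and 403 in sarcoid, and the chosen CpGs reach 12002 and 6223 reads.

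These CpGs lay close together. Joined where neighbours were at most 1000 bp apart, they formed 124 clusters, with a median of 7 CpGs over a median of 69 bp. The clusters covered 32300 bp in all. The 14 clusters with at least 20 CpGs held 567 of them (42.8%), and 11 clusters held 1 CpG each. Another 801 shared CpGs lay between members of a cluster without reaching the limit. Shared CpGs below the limit that lay inside a cluster or within 500 bp of it were found at 115 clusters. Their median coverage per cluster had a median of 82 reads in skin and 62 in sarcoid over these clusters.

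The clusters were spread unevenly over the chromosomes. Chromosome 13 held 319 of the CpGs, chromosome 5 held 245 and chromosome 1 held 231, together 60% of them against 15.2% of all shared CpGs. Chromosomes 7, 8 and 6 followed with 96, 87 and 70 CpGs. On chromosomes 14, 22, 24, 25, 26 and 30 no CpG passed the limit. Several clusters stood near each other. Joined over gaps of up to 1 Mb, chr5:36050351-36754206 held 12 clusters with 186 CpGs, chr1:69165204-69180291 held 5 with 171, and chr13:26822984-26883937 held 6 with 139. The first 100 kb listed of chromosome 13 held another 6 clusters with 102 CpGs (chr13:8151-91575). In all, 8.83% of the CpGs of extreme coverage (117) lay within 100 kb of the first or last CpG listed of a chromosome, against 1.42% of the 14541 CpGs next in coverage and 0.517% of the rest. All 117 were on chromosome 13 (102) or chromosome 23 (15).

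The largest cluster spanned 2578 bp at chr1:69175162-69177739 and had 97 CpGs. On average 3654 skin reads and 1956 sarcoid reads covered each of them, and their mean level was 58.3% in skin and 58.5% in sarcoid. Coverage peaked at chr1:69176825, where 12002 skin reads were 60.0% methylated and 6223 sarcoid reads were 60.6% methylated. The level thus stayed within 1 point between the libraries at the most deeply read CpG of the files. Within the cluster single CpGs ranged from 5.08% to 91.9% in skin. Of the 97 CpGs, 19 passed a q below 0.01 between the libraries (Fisher's exact test), which 2.97% of all CpGs tested did. Such deep coverage lets smaller differences pass than at most other CpGs, and none of the 97 differed by 25 points.

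**Figure D2:**
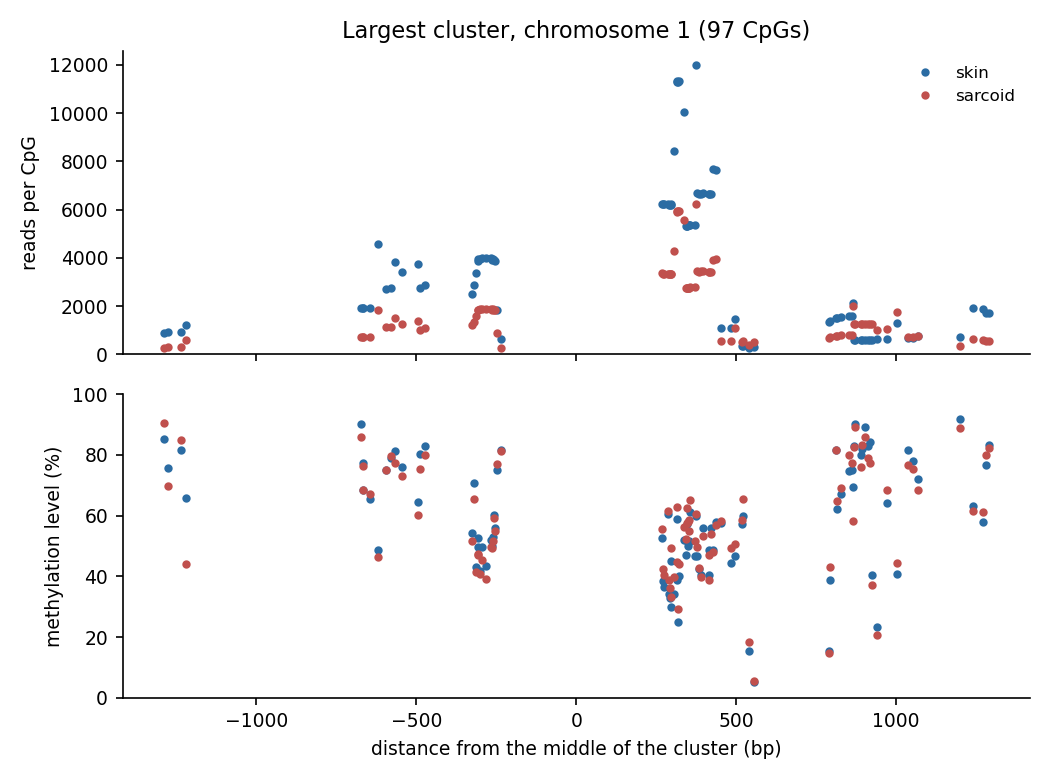
Reads per CpG (upper panel) and methylation level in percent (lower panel) against the distance in bp from the middle of the chromosome 1 cluster, with 1 point per CpG and library. Skin points reach 12002 reads and sarcoid points 6223, while the levels of both libraries overlie each other over most of the 97 CpGs.

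Of the next largest clusters, 1 was free of methylation and 1 was nearly fully methylated. The cluster at chr8:88978767-88979678 had 79 CpGs with a mean of 3295 reads in skin and 2019 in sarcoid. Of its summed reads 0.119% were methylated in skin (Wilson 95% interval 0.107 to 0.134%) and 0.0752% in sarcoid (0.0629 to 0.0899%), and no CpG exceeded 0.60% in skin. These intervals are too narrow, since CpGs of a fragment share reads. Methylated reads were also taken from rounded percents. At a CpG of extreme coverage this can be off by up to 3.34 reads in skin and 1.79 in sarcoid. No difference between the libraries is therefore read from levels this low. The cluster at chr6:59579424-59581293 had 50 CpGs with mean levels of 87.7% in skin and 87.6% in sarcoid. The other large clusters lay in between. The 3 large clusters of chr13:26871234-26882010 held 33, 34 and 49 CpGs, with 38.8%, 39.2% and 42.1% in skin and 39.1%, 40.1% and 42.9% in sarcoid. At chr5:36093855-36094263, 46 CpGs averaged 49.5% in skin and 45.4% in sarcoid. At chr1:69179210-69180291, 37 CpGs averaged 67.6% and 64.8%. At chr7:52722262-52723370, 25 CpGs averaged 45.2% and 46.5%.

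Of the 5 clusters with the highest mean coverage in skin, 2 were the large ones on chromosomes 1 and 8 described above and the others were short, as were all 5 in sarcoid. At chr1:89063164-89063251, 6 CpGs had a mean of 5372 reads in skin and 3303 in sarcoid, with levels of 34.2% and 38.0%. A cluster of 3 CpGs at chr1:89077292-89077300 had 3953 and 1710 reads, with levels of 22.6% and 26.1%. In sarcoid the highest mean was at chr4:23678613-23678681, where 7 CpGs had 2718 reads in skin and 3564 in sarcoid, with levels of 65.1% and 59.4%. All reads of that cluster came from the plus strand. There, the last CpG (chr4:23678681) was methylated in 1.58% of skin reads and 1.99% of sarcoid reads, while the other 6 lay between 64.4% and 82.6% in skin.

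Levels between the extremes were common at these CpGs. In skin, 39.2% of them lay between 30% and 70%, against 14.5% of the 14541 CpGs next in coverage (the top 1% of a library, with over 147 skin reads or over 115 sarcoid reads) and 20.4% of the remaining 1072060. At most 20% was measured at 19.7% of them, against 54.1% and 39.7%. At least 80% was measured at 25.5%, against 21.0% and 29.2%. Their mean level was 50.9% in skin and 50.1% in sarcoid, against 33.2% and 31.5% in the CpGs next in coverage and 44.1% and 42.8% in the rest. The most deeply read CpGs were thus neither mostly unmethylated, as the next group was, nor split into low and high values to the same degree as the rest. By cluster, 10 clusters with 146 CpGs averaged at most 10% in skin, 55 clusters averaged 30% to 70%, and 27 clusters with 216 CpGs averaged at least 80%. A cluster mean in the middle range did not always come from CpGs in that range. The 2 CpGs of chr21:47315004-47315072 were at 0% and 90.7% in skin and averaged 45.3%. All 10 low clusters also had low levels in sarcoid, at most 11.2%, and their differences ranged from -0.655 to 1.38 points. The level varied more between clusters (SD 27.7 points in skin, n = 124) than within those of at least 3 CpGs (median SD 12.2 points).

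**Figure D3:**
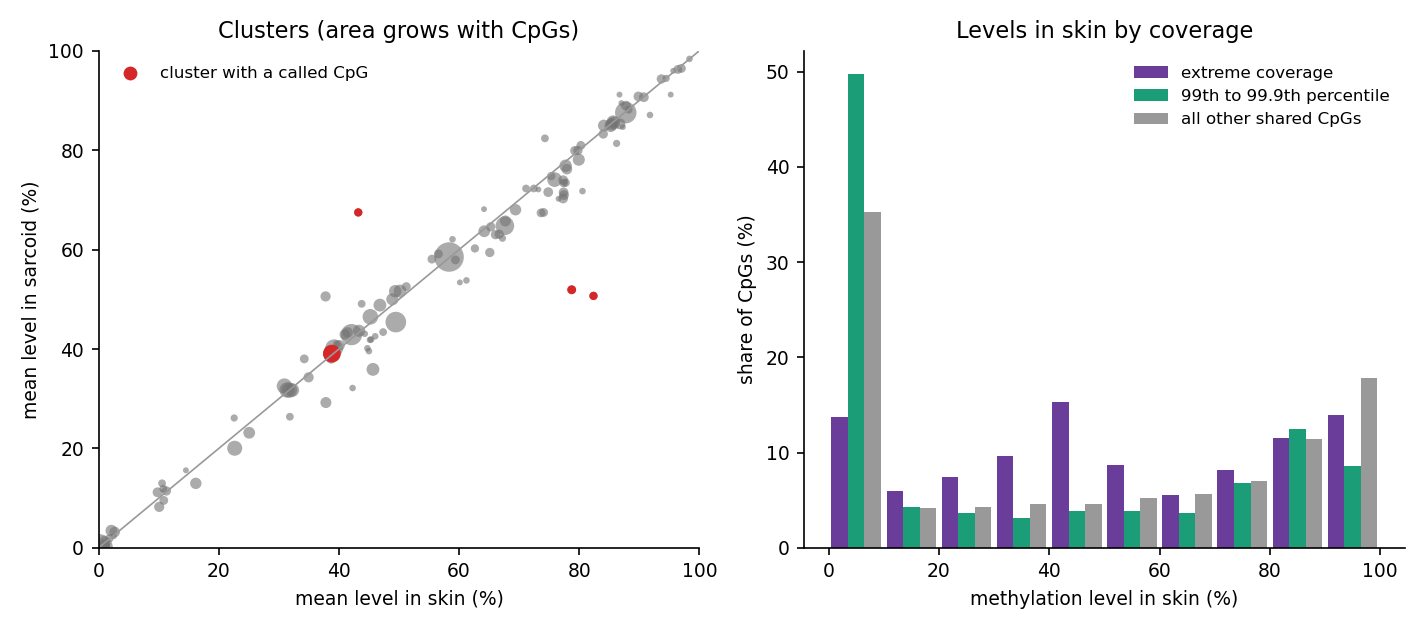
Left, mean level in percent of each of the 124 clusters in skin (x axis) and sarcoid (y axis), with the diagonal of equal levels and the 4 clusters that hold a called CpG in red. Right, share of CpGs in percent by level in skin for the 1325 CpGs of extreme coverage, the 14541 next in coverage and the other 1072060, where 39.2%, 14.5% and 20.4% lie between 30% and 70%.

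Sarcoid and skin differed little at these CpGs. Reads of each CpG were compared by Fisher's exact test (two-sided). A CpG was called where its Benjamini-Hochberg q over all 877053 CpGs tested (at least 10 reads in both libraries) was below 0.01 and the levels differed by at least 25 points. Of the 1324 CpGs of extreme coverage tested, 12 (0.906%) were called, 9 lower and 3 higher in sarcoid. Among all CpGs tested, the share called was 2.84%, with 1.89% lower and 0.954% higher. The share was thus below the background at this limit. At q below 0.01 with no limit on the difference, 137 of them (10.3%) passed, against 2.97% of all CpGs tested. With a limit of 10 points in place of 25, it was 60 of them (4.53%), against 2.96% of all, so the share was then above the background. Higher coverage lets smaller differences pass q. Without a test, a difference of at least 10 points was found at 4.76% of them, against 14.0% of the CpGs next in coverage and 32.9% of the rest. Where each library had 30 reads or more, 5.09% of all CpGs were called, further above the 0.906%. On the plus strand alone 12 of 1101 (1.09%) were called, against 1.57% of all CpGs tested on it. These were not all the same 12 CpGs, since chr5:89453702 had no plus reads. Reads were also thinned to 30 per library at every CpG that had them, so that depth was equal. A difference of at least 25 points was then found at 4.08% of the CpGs of extreme coverage and at 9.68% of all 367636 CpGs that could be thinned, while an unadjusted p below 0.05 was found at 3.25% and 9.46%. Only 1 of the 1324 was called then, against 1.09% of all. Most levels stayed close, as 81.4% differed by less than 5 points between the libraries, against 72.3% of the CpGs next in coverage and 51.1% of the rest. The SD of the differences was 5.24, 7.89 and 15.6 points in the same order, and lower coverage widens it by counting error. Levels in skin and sarcoid had a Pearson correlation of 0.986 over the 1324 CpGs tested, which share reads and clusters, against 0.977 and 0.918 in the other groups. The mean difference, sarcoid minus skin, was -0.798 points, against -1.65 and -1.28 in the other groups. The median difference was -0.250 points, against 0.0 in both other groups. The mean depended on how CpGs were weighed. With each cluster counted once it was -1.27 points, and with CpGs weighed by their reads it was 0.490 points, the opposite direction.

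The 12 called CpGs lay in 4 clusters, and all 9 that were lower in sarcoid lay in only 2 of these. At chr7:4090502-4090563, 6 CpGs averaged 78.7% in skin. In sarcoid they averaged 51.9%, which is -26.8 points. Of its summed reads 78.8% (Wilson 95% interval 77.3 to 80.3%) were methylated in skin and 51.9% (50.01 to 53.8%) in sarcoid. Of these 6 CpGs 4 were called, and the other two differed by -22.0 and -18.1 points. The fall was largest at chr7:4090507, from 85.6% of 478 reads to 51.9% of 441 (q = 4.2e-24).

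At chr10:47576402-47576452, all 5 CpGs were called. They averaged 82.4% in skin and 50.7% in sarcoid, or -31.7 points. The summed reads gave 82.5% (80.9 to 84.0%) and 50.7% (48.7 to 52.8%). At chr10:47576447 the level was 87.8% of 467 skin reads and 53.1% of 450 sarcoid reads (q = 1.5e-26). Both clusters were read on both strands in both libraries, with 472 and 436 mean reads on chromosome 7 and 454 and 442 on chromosome 10. Intervals and q-values here cover counting error only, since PCR reads without molecular identifiers may repeat 1 molecule and the CpGs of a fragment share their reads. Without these 2 clusters, 3 CpGs were called, none of them lower, and the mean difference was -0.561 points.

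The 3 called CpGs that were higher in sarcoid were found on chromosomes 5 and 13. At chr5:89453655-89453702, 5 CpGs averaged 43.2% in skin against 67.5% for sarcoid (24.3 points), and 2 of them were called. One of these, chr5:89453691, was methylated in 46.0% of 335 skin reads and 74.3% of 533 sarcoid reads (q = 6.5e-13). The strands contributed unequally in the libraries, with 62 plus and 273 minus reads in skin and 26 plus and 507 minus reads in sarcoid. The other, chr5:89453702, had minus reads only and was at 48.3% of 271 reads in skin and 75.9% of 507 in sarcoid, so the difference was also present on a single strand. The third call was chr13:26871906, with 0 of 259 skin reads methylated, which allows a share of up to 1.46% (upper bound of the Wilson interval), and 27.3% of 414 sarcoid reads. There skin listed the plus strand alone and sarcoid 152 plus and 262 minus reads, so the libraries did not compare the same strands. All 12 called CpGs had passed the coverage limit in sarcoid alone, and none of the 845 that passed in both libraries or the 240 that passed in skin alone was called.

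Most other clusters differed by a few points. Among the 99 clusters with at least 3 CpGs, all tested, 58 had a lower and 41 a higher mean level in sarcoid, with a median difference of -0.193 points. Of these, 84 differed by less than 5 points and 4 by at least 10. The fourth of those was chr1:114254476-114254548, where 9 CpGs averaged 37.8% in skin and 50.6% in sarcoid. All 9 were higher in sarcoid and 8 had q below 0.01, but none reached 25 points. At chr9:29282090-29282155, 4 CpGs averaged 74.3% and 82.4%, and the difference was carried by the first 2 CpGs (16.2 and 13.4 points, against 1.31 and 1.46). Smaller differences upward were 5.31 points at chr7:52707901-52707965, where 0 of 4 CpGs had q below 0.01, and 3.79 points at chr1:89063164-89063251. Among the lower clusters, chr5:36050351-36050867 was at 45.7% in skin and 35.9% in sarcoid, with 15 of 16 CpGs lower and 8 at q below 0.01. At chr5:36138141-36138214 the levels were 37.8% and 29.2%, with all 11 CpGs lower at q below 0.01. At chr8:34271888-34271956 they were 77.3% and 70.3%, with all 8 lower and 5 at q below 0.01.

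The authors' deposited table of p- and q-values held chromosome 1 only and listed all 231 CpGs of extreme coverage there. By the q-values of the authors' deposited table, 36 of them were below 0.01, and 0 of those also differed by 25 points. The shares over all 74187 CpGs of that table are not given here. These counts therefore cannot be placed above or below its background.

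The ratio of sarcoid to skin reads changed from place to place within clusters. It was taken as log2 and set to 0 at the median of all shared CpGs, where the ratio before centring was -0.58. The median of the CpGs of extreme coverage was -0.11, against 0.075 in the CpGs next in coverage and 0.0 in the rest, and the middle 90% spanned -0.93 to 1.89. The CpGs were cut into 175 stretches whose neighbours were at most 100 bp apart. The range of the ratio within a stretch had a median of 0.049, with stretches of 1 CpG counted as 0. Some stretches varied widely, as the 46 CpGs of chr5:36093855-36094263 ran from -1.05 to 1.05. In the 30 clusters made of several such stretches, the medians of the stretches ranged over a median of 1.12 and up to 2.95. Of the 30, 18 had stretches of both signs. In the largest chromosome 1 cluster the 6 stretches had ratios of -1.06, -0.81, -0.50, -0.35, 0.86 and -1.04. By these medians the ratio varied less within a stretch than between stretches of a cluster, but not in every stretch. Reads were 75 bp long and CpGs of a short stretch share them, so a small range within such a stretch was built in.

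The highest ratios were at chr5:36686625-36686682, with 228 mean reads in skin and 790 in sarcoid (2.38), at chr5:36681995-36682052 with 278 and 825 (2.15), and at chr6:58778212-58778271 with 393 and 989 (1.93). None of these 3 held a called CpG. The lowest were at chr23:28045067-28045133, with 1163 reads in skin and 362 in sarcoid (-1.10), at chr1:69165204-69165294 (-0.86) and at chr9:29282090-29282155 (-0.83). Mean levels at the chromosome 23 cluster were 67.7% in skin and 65.8% in sarcoid. Strand listing moved with the ratio. It had a median of 0.24 at the 936 CpGs read on both strands, of -0.42 at the 165 with the plus strand only and of -0.35 at the 193 with the minus strand only. Among the remaining CpGs those read on both strands were also highest, with 0.33 against -0.20 (plus only) and -0.21 (minus only). The part of strand listing in the ratio was not tested.

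The strands of a CpG could differ widely, and did so alike in both tissues. Both strands were listed in both libraries at 70.6% of the CpGs of extreme coverage, against 84.3% of those next in coverage and 39.1% of the rest. Where each strand had at least 10 reads, the strands differed by at least 30 points at 14.2% of these CpGs in skin and 14.8% in sarcoid, against 7.46% and 8.06% in the next group and 12.5% and 16.7% in the rest. Of 910 CpGs with such reads in both libraries, 141 had strands this far apart in either library and 120 in both with the same strand higher. The gap between strands in skin and that in sarcoid had a Pearson correlation of 0.969 over the 910 CpGs, which share fragments.

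Many stretches of extreme coverage recurred with the same spacing of CpGs. The distances between 7 neighbouring shared CpGs, each at most 75 bp, were read in either direction and looked up over all chromosomes. This comparison and the sets below were chosen after values had been seen. Of 1250 CpGs of extreme coverage in such runs, 65.2% lay in a run whose spacing occurred elsewhere too, against 47.2% of the CpGs next in coverage and 12.4% of the rest. Among other CpGs in 1 kb tiles that listed as many CpGs as the tile of the median member (36) or more, it was 21.5%. Clusters that shared a spacing were joined into 11 sets of 47 clusters with 699 CpGs (52.8%), and 8 sets lay on 1 chromosome each. The SD of the mean level in skin between the clusters of a set had a median of 3.69 points over the 11 sets, 5 of which had only 2 clusters, and reached 8.11 and 13.5 points in 2 sets, against 27.7 over all clusters. How the authors treated reads that match several places is not given in the sources used here, so the places of a set may share reads and are not replicates.

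One set repeated along chr5:36681995-36754206, with 8 clusters and 90 CpGs. It was made of 2 kinds of stretch, told apart by a mean ratio above 0 (left) or below it (right). The left kind, 7 CpGs each, occurred 6 times and began 2321, 2309, 2309, 4655 and 2506 bp apart. Its mean coverage was 228 to 300 reads in skin and 789 to 825 in sarcoid, a ratio of 1.98 to 2.38. The right kind, 8 CpGs each, also occurred 6 times, with 1345 to 1457 reads in skin and 566 to 616 in sarcoid, a ratio of -0.72 to -0.58. The opposite signs of the ratio were thus set by how the kinds were told apart. The left kind had also passed the coverage limit in sarcoid alone, a choice that favours ratios above 0. In level, both kinds were alike in the libraries. The left kind was at 79.7% ± 0.356 in skin and 79.7% ± 0.205 in sarcoid, and the right kind at 90.5% ± 0.379 and 90.5% ± 0.582 (SD over 6 places). In each of the 12 places the mean level of the libraries differed by less than 1 point.

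**Figure D4:**
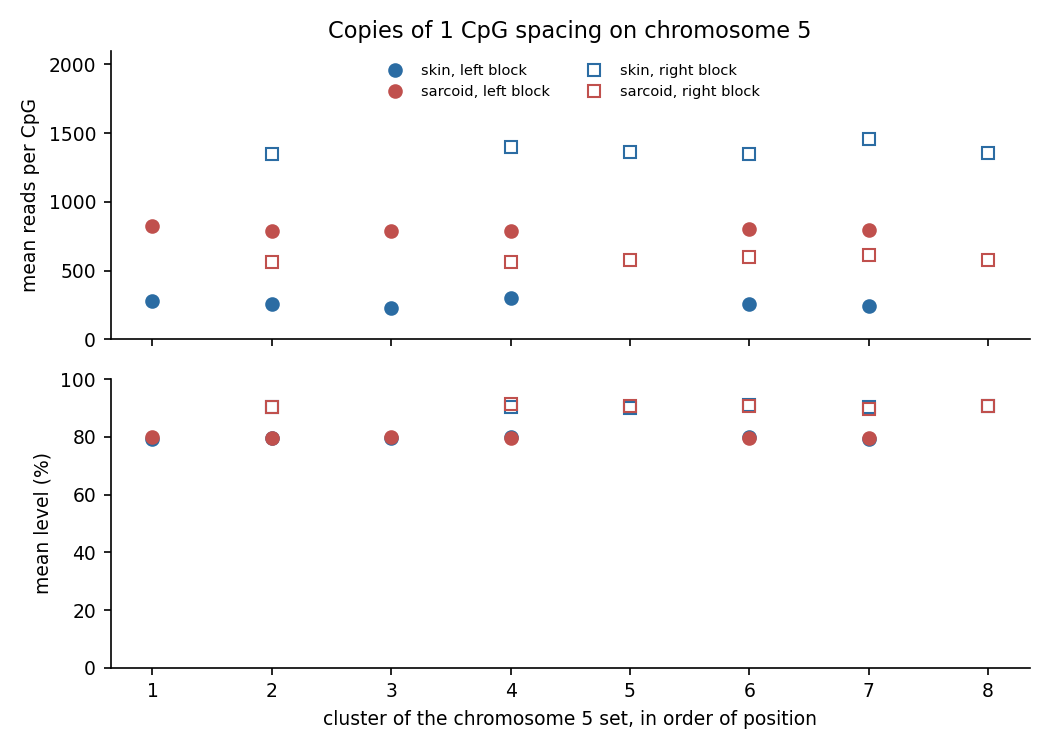
Mean reads per CpG (upper panel) and mean level in percent (lower panel) of the left stretches (filled circles) and right stretches (open squares) in the 8 clusters of the chromosome 5 set, in order of position. Left stretches have 228 to 300 reads in skin and 789 to 825 in sarcoid and right stretches the opposite order, while levels of both libraries coincide near 79.7% and 90.5%.

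Depth ratios also recurred at chr1:69165204-69180291, where 5 clusters with 171 CpGs formed a set. Its levels were 58.3% to 77.9% in skin, and the differences between the libraries were -2.83 to 0.169 points, below 0 in 4 of 5. Stretches of 10 CpGs beginning at 69166761, 69170961 and 69179210 had ratios of 0.88, 0.84 and 0.91, while stretches of 12 CpGs beginning at 69171595, 69175778 and 69179854 had -0.74, -0.81 and -0.78. At the start of chromosome 13, 3 clusters of 24 CpGs and 285 bp each were nearly alike. At chr13:8151-8435 skin had a mean of 1069 reads and sarcoid of 876, with levels of 31.8% and 31.7%. At chr13:30492-30776 it was 1049 and 823 reads, with 30.9% and 32.5%. At chr13:43660-43944 it was 1087 and 854 reads, with 31.4% and 31.8%. Between them lay 2 clusters of 6 CpGs of the same set, chr13:34892-34960 and chr13:39279-39347, with 56.6% and 55.5% in skin and 59.1% and 58.1% in sarcoid. A further set on chromosome 13, from 24855152 to 26882010, had 6 clusters with 149 CpGs at 38.7% to 50.2% in skin and differences of 0.250 to 1.48 points. The set at chr7:52707901-52723370 had 4 clusters with 59 CpGs at 43.3% to 46.8% in skin and differences of 0.316 to 5.31 points. On chromosome 12, 2 clusters with 12 CpGs were at 97.01% and 96.4% in skin and 96.4% and 96.2% in sarcoid.

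The set with most clusters was spread over 6 chromosomes and was lower in sarcoid throughout. Its 9 clusters had 68 CpGs. The most frequent run of the set had steps of 5, 7, 14, 5, 19 and 11 bp between its CpGs. This run was present in 5 of the 9 clusters, and the others were joined through other shared runs. The clusters averaged 71.9% in skin and 67.6% in sarcoid, and the differences ranged from -7.04 to -0.70 points, below 0 in 9 of 9. Their depth ratios were 0.65 to 0.98. Aligned in 1 direction from the first CpG of each cluster, the clusters shared CpGs at 7 distances. At the CpG 44 bp from that first CpG, the 9 clusters lay between 64.4% and 75.9% in skin and between 54.8% and 66.4% in sarcoid. The last CpG of the clusters, 68 bp from their first, varied most between the clusters, from 1.58% to 76.7% in skin. The values fell into 2 kinds. In the clusters of 7 CpGs the last CpG was at 1.58% to 3.20% and the first at 78.3% to 82.6%. In those of 8 CpGs the last was at 67.8% to 76.7% and the first at 24.5% to 29.8%.

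Runs with the steps of that most frequent run were also found outside the extreme range. Of 272 runs listed, 267 held no CpG of extreme coverage and lay on 30 chromosomes, with a median of 91.7 mean reads in skin and 73.7 in sarcoid. Their mean level was lower in sarcoid in 247 and higher in 20, with a median of -7.71 points. All 7 CpGs were tested in 206 of the 267, and 194 of these 206 were lower. Of the 272 runs, 64 began within 1000 bp of the run before them, so the runs are not all separate places. Over the 1763 tested CpGs of the 267 runs the level averaged 77.3% in skin and 68.4% in sarcoid. Of these CpGs 1440 were lower and 318 higher, and the 28 that were called (1.59%) were all lower. The share called was below the 2.84% of all CpGs, while the mean difference was -8.83 points, against -1.28 for the remaining CpGs. Those CpGs had lower levels, so the comparison was repeated, after values had been seen, at CpGs whose mean of both libraries was 65% to 80%. There 1023 CpGs below the extreme range, in runs of this spacing or that of the chromosome 7 and 10 clusters, averaged -10.9 points with 88.0% lower, and 88594 CpGs outside such runs averaged -2.34 points with 54.3% lower. With at least 50 reads in each library it was -12.3 points with 92.7% lower (n = 726) against -3.46 points with 59.6% lower (n = 8715). The direction seen at the 9 clusters was thus also that of most other runs with the steps of that most frequent run.

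The chromosome 7 and 10 clusters with the 9 lower calls shared a spacing too. Its steps were 5, 21, 5, 19, 11 and 20 bp. The first 5 of them equal those of the most frequent run of the 9-cluster set with 1 CpG left out. The steps of 7 and 14 bp in that run add up to 21. The 2 clusters averaged 80.6% in skin and 51.3% in sarcoid. Of 29 runs listed with this spacing, 27 held no CpG of extreme coverage and lay on 17 chromosomes. In 26 of these 27 the mean level was lower in sarcoid, with a median of -10.5 points. Over their 162 tested CpGs the level averaged 74.6% in skin and 61.9% in sarcoid, 144 were lower and 17 higher, and the 16 called (9.88%) were all lower. Of all CpGs tested 1.89% were called lower, and of the 88594 CpGs outside the runs at 65% to 80% it was 4.07%. The 2 clusters of extreme coverage in this set were singled out for their lower calls, so their direction was set by that choice. They add nothing to the direction of the 9-cluster set.

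**Figure D5:**
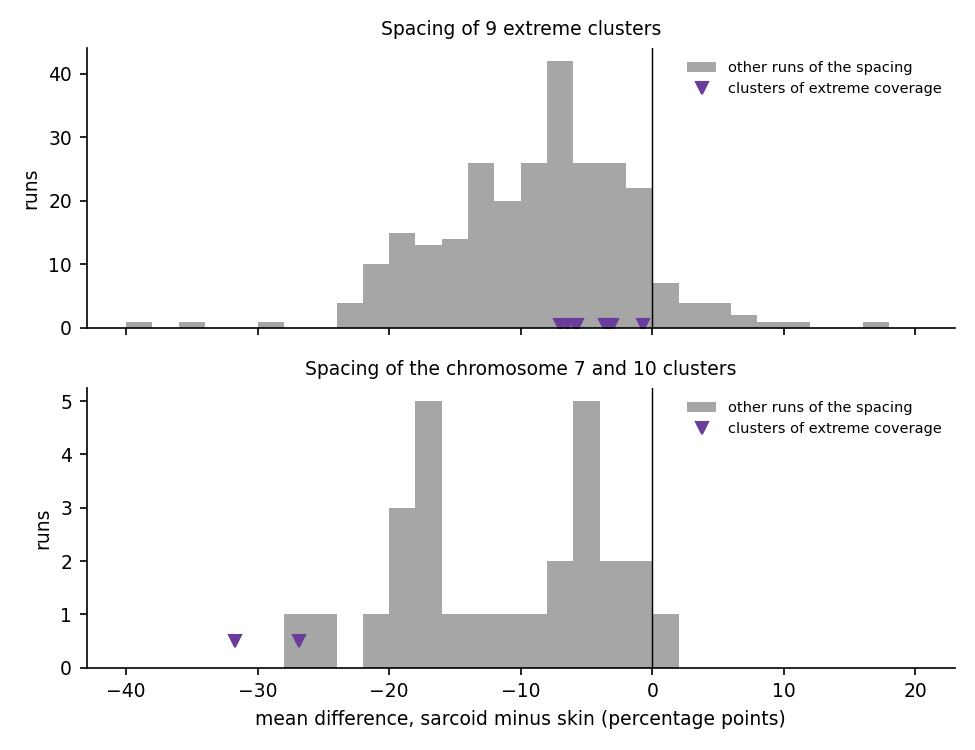
Number of runs by their mean difference in level, sarcoid minus skin in percentage points, with triangles for clusters of extreme coverage and a line at 0. The upper panel has the most frequent run of the 9-cluster set, which 5 of the 9 clusters held. The lower panel has the spacing of the chromosome 7 and 10 clusters. Most runs lie below 0, 247 of 267 in the upper and 26 of 27 in the lower panel. All 11 triangles do too, but those of the lower panel were singled out for their lower calls.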

How the data were processed

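DNA methylation was measured by RRBS in 1 sarcoid and 1 skin library of horse 1, sequenced with 75 bp single-end reads per the labels' protocols. BSMAP, FastQC and methylKit were used per the submitters' processing notes, and the genome build, the settings and the handling of reads with several matches are not given in the sources used here. Per the file headers, each deposited file lists cytosines in CpGs by strand, with a read count (coverage) and the percent of C and T reads, on chromosomes 1 to 31. The authors' deposited table gives p-values, q-values and methylation differences for chromosome 1 and was used for its q-values and differences only.

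Coverage times percent of C, rounded, gave the methylated reads, and strands were summed. In skin 0.567% and in sarcoid 0.543% of cytosines gave no whole number within the printed decimal, and these were kept. At the CpGs of extreme coverage the rounding can be off by up to 3.34 reads in skin and 1.79 in sarcoid. Clusters joined CpGs at most 1000 bp apart. The Fisher test, its adjustment over 877053 CpGs and the calls (q below 0.01, at least 25 points) covered the whole table and were tested on simulated data. Wilson intervals of 95% and q-values cover counting error between 2 libraries only. The clusters named were the 10 with most CpGs, the 5 of highest mean coverage in each library, and, among clusters of at least 3 CpGs with all CpGs tested, the 5 largest rises and falls and the 3 highest and lowest depth ratios. Spacing sets and their clusters were named after their values were seen. The CpGs, rules and lists were chosen with earlier results of these data known. Genes at the clusters had been planned and were not analysed here. Alternatives were other coverage limits, call limits, thinning, the plus strand alone and other weights. Versions were matplotlib 3.10.9, numba 0.67.0, SciPy 1.17.1, NumPy 2.4.6, pandas 2.3.3 and Python 3.11.15.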

Additional observations from a re-analysis of the deposited data

How the results depend on the processing

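Of 63 alternative values, 19 stayed within counting error (or, for counts, within 1.5 times) of the value reported, and 44 moved further. Among these the mean difference weighed by reads and the median depth ratio with each cluster counted once changed sign; the depth ratio also did so, within counting error, at the top 0.5% (0.028). The coverage limit moved most values. With the top 0.5% of either library there were 7141 CpGs in 1018 clusters, 83 called (63 lower, 20 higher), a mean difference of -1.87 points, 28.7% at most 20% and 31.6% at least 80% methylated in skin, 76.5% read on both strands and 11.2% with strands 30 points apart. With the top 0.01% there were 151 CpGs in 14 clusters, 0 called (0 lower, 0 higher), a mean difference of -0.0557 points, 31.8% at most 20%, 8.61% at least 80%, a median depth ratio of -0.37 and 7.77% with strands apart. Where both libraries had to pass, 845 CpGs in 79 clusters were left, with 0 called (0 lower, 0 higher) and 12.1% with strands apart. With a limit of 10 points, 60 were called (42 lower, 18 higher), and with reads thinned to 30, 1 was called (1 lower, 0 higher). The mean difference was -0.568 points on the plus strand alone, -1.27 with each cluster counted once and 0.490 weighed by reads. Single clusters moved either way under this weighing, since summed reads were 87.9% and 83.0% methylated in the chromosome 6 cluster (CpG means 87.7% and 87.6%) and 37.4% and 43.8% at the start of chromosome 13 (31.8% and 31.7%). Counting each cluster once gave 13.7% at most 20%, 21.8% at least 80% and a median depth ratio of 0.17, and centring on total reads gave -0.26. Strands were 50 points apart at 10.9%. Chosen after seeing the data, leaving out the chromosome 7 and 10 clusters gave 3 called, 0 lower and a mean difference of -0.561 points, and runs of 9 CpGs gave 56.1% with a repeated spacing. The cause of these shifts was not tested. No paired analysis was possible because each tissue has 1 library, and for the same reason no library could be left out.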
